A study of Mus musculus with 138 samples.

Results

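A set of 10 regulators of chromosome segregation was followed through embryos at the 2-cell stage that had lost the chromatin remodeller SMARCA5. They are the checkpoint genes Bub1, Bub1b, Mad2l1 and Ttk, the activator Cdc20, the inhibitors Fbxo5 and Fbxo43, the securin gene Pttg1, and the Aurora kinases Aurka and Aurkc. The genes were chosen by name, and all 10 of 10 were found among the 25900 genes of the count tables. Values come from the 116 embryo libraries with at least 100000 counts, out of 135 embryo libraries. Polyadenylated RNA of each plate well was sequenced as 1 library by scNMT-seq, which also reads DNA methylation and open chromatin in the same material.

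The embryos formed 5 groups. In the deletion experiment, 28 kept libraries carried the label Smarca5 +/- (mat KO), embryos of mothers without Smarca5 in the egg and wild-type fathers, and 22 carried the label Smarca5 +/+. They are called maternal deletion and wild type here. The titles of both groups name matKO females, so the mothers cannot be told apart from the titles, and the embryo's own genotype differs between the groups as well. In the other experiment, wild-type zygotes were depleted of SMARCA5 protein by TrimAway, in which an injected antibody directs its target to the ubiquitin ligase TRIM21 for degradation. It held 31 libraries of embryos labelled a-Smarca5 (called anti-SMARCA5), 20 labelled IgG, an antibody without this target, and 15 labelled as controls without injection (called uninjected). These embryos were collected at least 24 hours after injection. The driver of the deletion, the strains and the age of the mothers are not given in the sources used here. Replicate numbers name pools of embryos that the submitters call technical replicates. P-values therefore measure the spread between these libraries, which may be partly technical.

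The spindle checkpoint holds back anaphase until every chromosome is attached to the spindle. The kinases encoded by Ttk (also called Mps1) and Bub1 act at unattached kinetochores, and MAD2 (Mad2l1) and BUBR1 (Bub1b) then bind CDC20 and keep it from activating the anaphase-promoting complex (APC/C). Once active, this ubiquitin ligase destroys cyclin B and securin (Pttg1), which frees separase. EMI1 (Fbxo5) restrains the APC/C in interphase, and EMI2 (Fbxo43) holds the mature egg in metaphase of meiosis II until fertilisation. Aurora A (Aurka) builds spindle poles, and Aurora C (Aurkc) is a germ-cell relative of Aurora B. Eggs carry stored transcripts of many such genes, and the mouse embryo starts its own major wave of transcription at the 2-cell stage.

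Kept libraries held 109007 to 12004992 counts. Medians ran from 545264 counts in the wild-type group to 1708008 in the IgG group. All 6 IgG libraries of replicate 2 fell under the minimum, so anti-SMARCA5 and IgG shared only replicates 1 and 3. The 11 genes listed as markers of the 2-cell embryo were each above 3 counts in the summed libraries of every group. All 8 blastocyst markers also were in the maternal deletion, anti-SMARCA5 and IgG groups, so this does not check the stage. Smarca5 RNA was lower in the maternal deletion group (log2 fold change -2.06, standard error (SE) 0.31, edgeR adjusted p = 2.63e-07), with all 28 libraries below the wild-type median. TrimAway acts on protein, so this RNA does not check it. In replicate 1 of that experiment Smarca5 RNA medians were 387 CPM for anti-SMARCA5, 693 CPM for IgG and 626 CPM for uninjected libraries. In replicate 3 they were 134, 624 and 503 CPM, and the reason was not tested. Trim21 RNA, which is injected in that system, had a median of 1404 CPM (counts per 1000000 counts of the library) in the anti-SMARCA5 group. It was at 0 in 1 anti-SMARCA5 library, well C02 of replicate 2. The IgG controls were unlike each other: Trim21 was at 0 in all 10 libraries of replicate 1, while in replicate 3 its median was 182 CPM, with 2 of 10 libraries at 0 and the highest at 1513 CPM. The part of this in the values against IgG was not tested. One library labelled maternal deletion, well A04 of replicate 2, went against its label, with 349 CPM of Smarca5 and 24.5 CPM of the oocyte gene Gdf9. Wells G05 and H05 of replicate 2 in the wild-type group lay toward the opposite side, with 645 and 350.5 CPM of Gdf9. These libraries were kept, and values without them are given beside the results they touch.

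**Figure D1:**
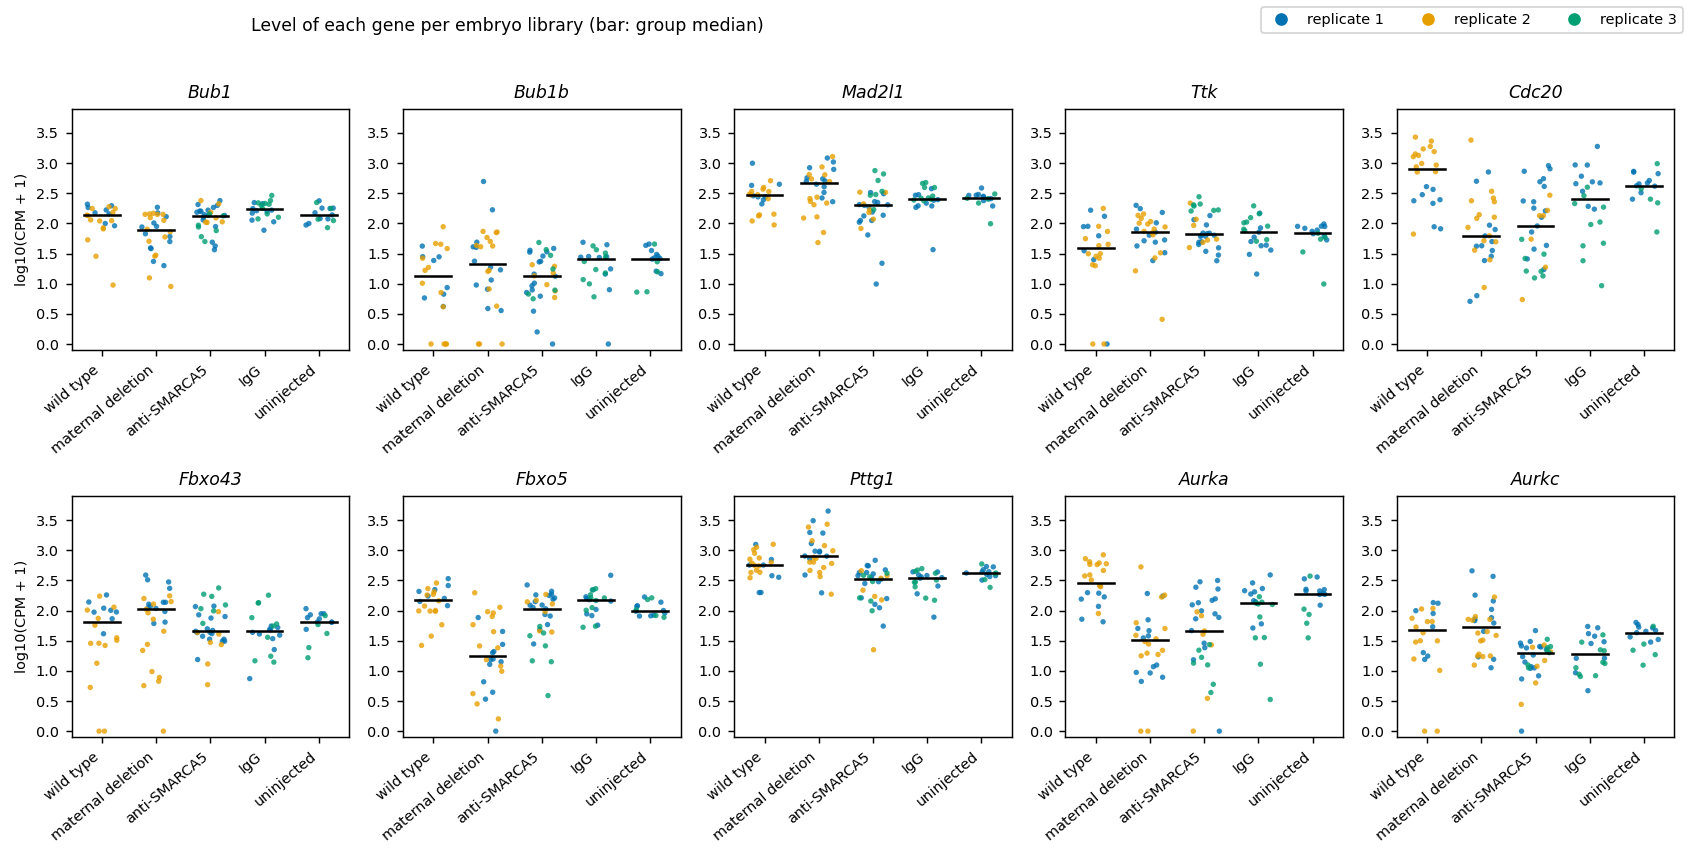
Level of each gene in every kept library, as log10(CPM + 1) on the vertical axis, by group, with points coloured by replicate number and a bar at the group median. Cdc20, Fbxo5 and Aurka sit lowest in the maternal deletion group, with medians of 61.2, 16.8 and 31.3 CPM.

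Levels of different genes were compared per kilobase of exon. In wild-type embryos the median level was highest for Cdc20, at 425 CPM per kilobase, followed by Pttg1 at 283 and Mad2l1 at 132. Aurka (114), Fbxo5 (75.5), Aurkc (38.1) and Bub1 (31.0) lay in the middle, and Fbxo43 (15.9), Ttk (7.74) and Bub1b (2.91) were lowest on the same scale. In maternal deletion embryos the order changed at the top: Pttg1 led with 399.8 CPM per kilobase and Mad2l1 followed with 213. Cdc20 had 32.8 there, Aurka 12.4 and Fbxo5 8.41. The uninjected group had Cdc20 (225) ahead of Pttg1 (209), whereas Pttg1 led in the IgG group (173, against 134 for Cdc20) and in the anti-SMARCA5 group (166, against 48.0 for Cdc20). When each gene's 5 groups were ordered by median, no pair of neighbours had ranges that stayed apart, for any of the 10 genes. These ranges run from the lowest to the highest library. The same count was not made over all genes, so nothing particular to the 10 is read from it.

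Maternal deletion embryos had less RNA of Cdc20, Fbxo5 and Aurka and more of Bub1b, Mad2l1 and Pttg1 than wild-type embryos. A gene is called changed where the Benjamini-Hochberg adjusted p of edgeR's quasi-likelihood test over all genes was under 0.05. By this rule 6 of the 10 genes changed, 3 in each direction, beside 56.6% of the 8518 genes tested, 30.3% higher and 26.4% lower. The share among the 10 genes was thus close to that among all genes. Their median log2 fold change was 0.76, and that of all tested genes 0.18.

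**Figure D2:**
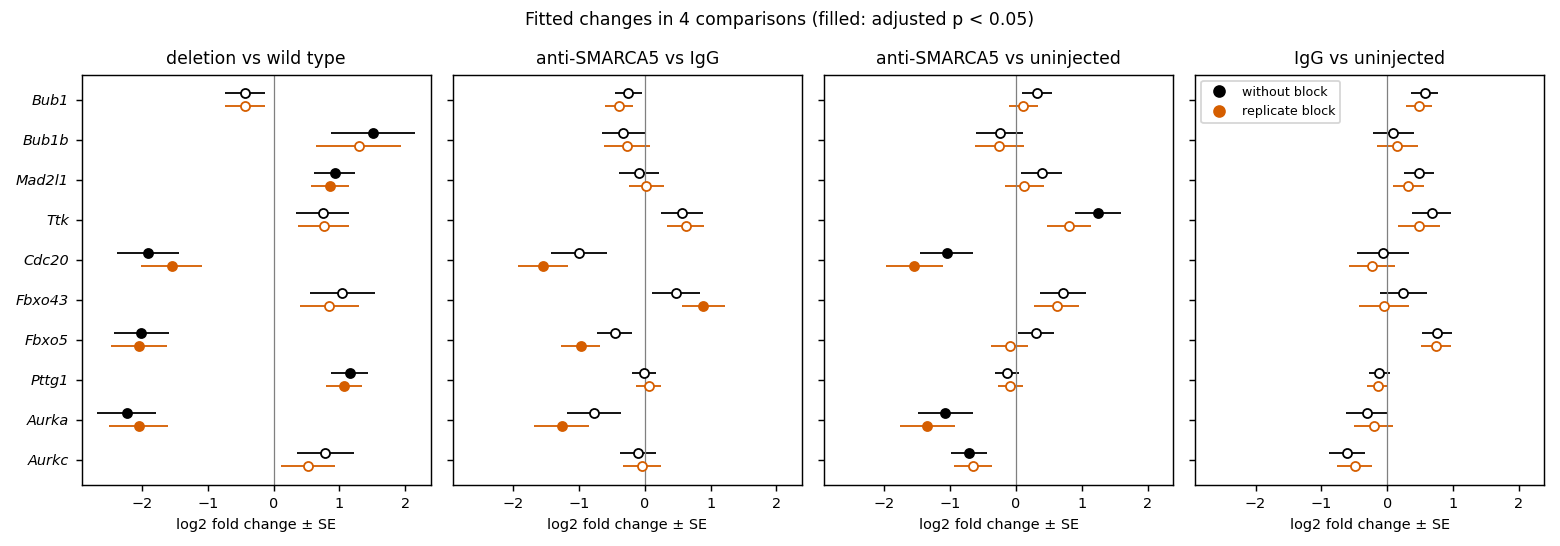
Fitted log2 fold changes of the 10 genes, with SE bars, in 4 comparisons, without (black) and with (orange) the replicate number as a block. Filled points have an adjusted p under 0.05: in the deletion comparison Cdc20, Fbxo5 and Aurka lie near -2, and in anti-SMARCA5 against IgG no black point is filled.

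Cdc20, the activator that hands substrates to the APC/C in mitosis, ran from 65.5 through a median of 794 to 2698 CPM in the 22 wild-type libraries. In the 28 maternal deletion libraries it ran from 4.10 through 61.2 to 2408 CPM. The ranges overlapped, but 27 of the 28 libraries lay below the wild-type median and 15 lay below its lowest library. The exception with 2408 CPM was well A04, the library that went against its label. The log2 fold change was -1.91 (SE 0.47, edgeR adjusted p = 0.000651), and -2.51 without wells A04, G05 and H05 (edgeR adjusted p = 2.89e-06). Wild-type levels themselves differed between replicates, with a median of 241 CPM in replicate 1 and 1310 CPM in replicate 2. The change was -0.77 within replicate 1 (SE 0.68, edgeR adjusted p = 0.423) and -2.03 within replicate 2 (SE 0.58, edgeR adjusted p = 0.00344).

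The Cdc20 gene lies on the minus strand of chromosome 4 (positions 118432901 to 118437352, GRCm38), and 53 of its 1868 exon bases also belong to Elovl1 on the opposite strand. Whether the counts use strand is not stated in the sources used here. Elovl1 moved the other way: it ran from 0 to 48.8 CPM in wild-type and from 18.9 to 140.5 CPM in maternal deletion libraries, a rise of 2.73 on the log2 scale (SE 0.41, edgeR adjusted p = 3.31e-07).

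Aurka, on chromosome 2 (positions 172356190 to 172370535, minus strand), encodes Aurora A. It ran from 64.1 through 289 to 839 CPM in wild-type libraries and from 0 through 31.3 to 528 CPM in maternal deletion libraries. Of the 28 libraries, 27 lay below the wild-type median, 22 lay below the lowest wild-type library, and the highest was again well A04. The log2 fold change was -2.23 (SE 0.45, edgeR adjusted p = 4.68e-05), or -2.64 without wells A04, G05 and H05. As with Cdc20, the wild-type median was lower in replicate 1 (161 CPM) than in replicate 2 (519 CPM). Within the replicates the change was -1.46 (SE 0.66, edgeR adjusted p = 0.0961) and -2.42 (SE 0.57, edgeR adjusted p = 0.000527).

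Because Cdc20 and Aurka fell together, their start regions are shown beside that of Mad2l1, a gene that rose. The sequences are from RefSeq (GRCm38.p6) and stop short of any annotated exon. Capitals mark CCAAT, the letters of the CCAAT box, which read ATTGG when they lie on the other strand. They also mark TTTGAA, the letters of the cell cycle homology region, which read TTCAAA there. Both elements are known from promoters of mitotic genes, and their letters do not overlap.
Cdc20 (minus strand, chr4:118437353-118437463): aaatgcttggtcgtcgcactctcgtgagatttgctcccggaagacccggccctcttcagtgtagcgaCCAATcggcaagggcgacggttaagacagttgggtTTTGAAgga
Aurka (minus strand, chr2:172370571-172370680): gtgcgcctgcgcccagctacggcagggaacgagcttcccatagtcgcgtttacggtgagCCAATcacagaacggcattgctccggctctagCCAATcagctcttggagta
Mad2l1 (plus strand, chr6:66535101-66535220): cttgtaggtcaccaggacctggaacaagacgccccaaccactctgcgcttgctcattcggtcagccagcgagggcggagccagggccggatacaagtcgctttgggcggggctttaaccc
Windows of 300 bases, from 250 before to 50 after the start, were found for 9 of the 10 genes. CCAAT was present on either strand in 7 of the 9, and in 37.4% of all 32851 such windows. TTTGAA was present in 5 of the 9 and in 17.9% of all windows. Cdc20 held CCAAT at 53 and 8 bases and TTTGAA at 18 bases before its start, and the match at 8 bases lies past the end of the printed stretch. Aurka held CCAAT at 51 and 19 bases before its start and TTTGAA at base 33 after it. Fbxo5 held 3 copies of CCAAT, on the other strand at 93, 55 and 25 bases before the start. It also held TTTGAA on the other strand at base 4 after the start. Among the genes that rose, Bub1b held both motifs, CCAAT on the other strand at 113 bases before the start and TTTGAA at base 41 after it, and Mad2l1 and Pttg1 held neither. Of those that did not pass the test, Ttk held CCAAT at 65 and 28 bases before its start and TTTGAA on the other strand at base 8 after it. Bub1 held CCAAT on the other strand at 68 bases and on its own strand at 42 bases before its start. Aurkc held CCAAT on the other strand at base 25 after its start. Both motifs were thus found in genes of either direction. These are matches of letters only.

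Fbxo5, on chromosome 10 (positions 5799160 to 5805600, minus strand), encodes EMI1, the interphase inhibitor of the APC/C. It ran from 25.4 through 151 to 337 CPM in wild-type libraries and from 0 through 16.8 to 196 CPM in maternal deletion libraries. Of the 28 libraries, 27 lay below the wild-type median and 18 below its lowest value. The 1 library above that median was well D04 of replicate 2. The log2 fold change was -2.01 (SE 0.42, edgeR adjusted p = 8.11e-05), -3.13 within replicate 1 (SE 0.63, edgeR adjusted p = 0.000244) and -1.28 within replicate 2 (SE 0.52, edgeR adjusted p = 0.0368).

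Fbxo43, on chromosome 15 (positions 36150060 to 36164884, minus strand), encodes EMI2, the inhibitor that works in the egg. Its median was 64.2 CPM in wild-type libraries (0 to 181 CPM) and 106 CPM in maternal deletion libraries (0 to 387 CPM). Its log2 fold change of 1.05 missed the threshold (SE 0.49, edgeR adjusted p = 0.0619), with 18 of 28 libraries above the wild-type median. Without wells A04, G05 and H05 the change was 1.21 and passed (edgeR adjusted p = 0.0329).

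Per kilobase, Fbxo43 stood above Fbxo5 in 1 of 22 wild-type libraries and in 19 of 28 maternal deletion libraries (67.9%). That held for 12 of 13 maternal deletion libraries of replicate 1 and for 7 of 15 of replicate 2. In the TrimAway experiment it was seen in 1 of 20 IgG, 0 of 15 uninjected and 7 of 31 anti-SMARCA5 libraries. Of these 7, 6 were among the 7 anti-SMARCA5 libraries of replicate 3. The order of the APC/C inhibitors thus differed between embryos of the same group.

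**Figure D3:**
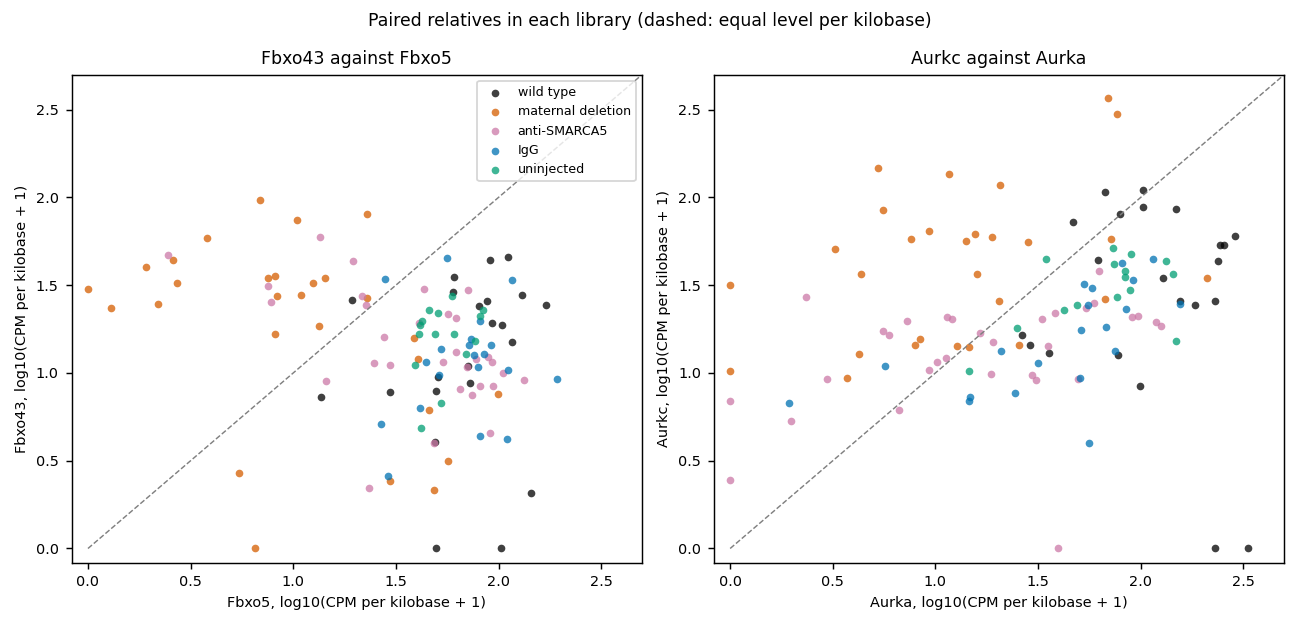
Level per kilobase of Fbxo43 against Fbxo5 (left) and of Aurkc against Aurka (right) in each kept library, as log10(CPM per kilobase + 1), coloured by group, with a dashed line of equal level. Above the line lie 19 of 28 maternal deletion libraries on the left and 23 of 28 on the right.

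Aurkc (chromosome 7, positions 6995443 to 7002945, plus strand) did not pass the test. It ran from 0 through 47.0 to 134.5 CPM in wild-type and from 10.3 through 52.7 to 455 CPM in maternal deletion libraries, with 14 of 28 libraries above and 14 below the wild-type median. The log2 fold change was 0.78 (SE 0.43, edgeR adjusted p = 0.115). Its level per kilobase exceeded that of Aurka in 4 of 22 wild-type and 23 of 28 maternal deletion libraries. The same was seen in 2 of 20 IgG, 1 of 15 uninjected and 14 of 31 anti-SMARCA5 libraries, including all 7 of replicate 3.

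Pttg1, on chromosome 11 (positions 43420250 to 43426251, minus strand), encodes securin, the inhibitor of separase and a substrate of the APC/C. It ran from 198 through 567 to 1255 CPM in wild-type libraries and from 186 through 799.6 to 4465 CPM in maternal deletion libraries. The ranges overlapped, and 21 of 28 libraries were above the wild-type median. The log2 fold change was 1.15 (SE 0.28, edgeR adjusted p = 0.000504), 1.59 within replicate 1 (SE 0.43, edgeR adjusted p = 0.00516) and 0.73 within replicate 2 (SE 0.34, edgeR adjusted p = 0.0643). The 2 highest libraries, wells E09 and D09 of replicate 1, were also the 2 highest for Bub1b and Aurkc. Without them the change of Pttg1 was 0.88 (edgeR adjusted p = 0.00307).

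Mad2l1, on chromosome 6 (positions 66535390 to 66541033, plus strand), encodes the MAD2 protein that closes on CDC20. It ran from 93.4 through 291 to 995.5 CPM in wild-type and from 47.2 through 469.5 to 1283 CPM in maternal deletion libraries. Its log2 fold change was 0.93 (SE 0.31, edgeR adjusted p = 0.00930), with 17 of 28 libraries above the wild-type median. The change was 0.80 within replicate 1 (SE 0.46, edgeR adjusted p = 0.195) and 0.90 within replicate 2 (SE 0.37, edgeR adjusted p = 0.0386).

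Bub1b (chromosome 2, positions 118598211 to 118641591, plus strand), which encodes BUBR1, was the weakest of the genes by level. It was at or under 3 counts in 8 of 22 wild-type and 4 of 28 maternal deletion libraries. Wild-type values ran from 0 through 12.4 to 87.1 CPM and maternal deletion values from 0 through 20.2 to 495 CPM. The log2 fold change was 1.51 (SE 0.63, edgeR adjusted p = 0.0373). It was 1.29 (edgeR adjusted p = 0.0790) with the replicate block, and 0.66 (edgeR adjusted p = 0.345) without wells D09 and E09, which held 167 and 495 CPM. The call for Bub1b rested on those libraries.

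Bub1 (chromosome 2, positions 127801122 to 127831865, minus strand), the kinase that recruits other checkpoint proteins, ran from 8.49 through 135 to 207 CPM in wild-type and from 8.01 through 75.6 to 184 CPM in maternal deletion libraries. Its difference of -0.44 on the log2 scale did not pass the test (SE 0.30, edgeR adjusted p = 0.215), although 21 of 28 libraries lay below the wild-type median. Ttk (chromosome 9, positions 83834689 to 83872390, plus strand), the kinase that starts the checkpoint signal, ran from 0 through 38.1 to 177 CPM and from 1.57 through 71.6 to 199 CPM. Its log2 fold change was 0.74 (SE 0.41, edgeR adjusted p = 0.114), with 22 of 28 libraries above the wild-type median.

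Cdc20, Fbxo5 and Aurka all lay below the wild-type median in 26 of 28 maternal deletion libraries, where each gene alone did so in 27, and in 3 of 22 wild-type libraries. In 12 of the 28 all 3 lay below the lowest wild-type library. These 3 are the members called lower in the same libraries, so the joint counts follow in part from that choice. With the replicate number as a block, 5 of the 10 genes changed, beside 57.6% of all genes tested, and the gene lost was Bub1b. In 1 joint fit of both replicates, the count within replicate 1 was 2 of 10 (beside 25.4% of all genes). Within replicate 2 it was 4 of 10 (beside 51.5%). Separate fits of replicate 1 and replicate 2 called 4 of 10 each, beside 2801 of 6389 and 3879 of 9730 genes. With replicate 1 alone, Aurka (edgeR adjusted p = 0.0208) and Bub1b (edgeR adjusted p = 0.0432) passed as well. With replicate 2 alone, Pttg1 passed (edgeR adjusted p = 0.0428) and Fbxo5 did not (edgeR adjusted p = 0.0864). All 10 genes had the same sign in both replicates. Between replicates 1 and 3 the count was 6 of 10 for anti-SMARCA5 against IgG. It was 5 for anti-SMARCA5 against uninjected and 6 for IgG against uninjected. Signs were not counted over all genes, so nothing particular to the 10 is read from this. The difference of the deletion effect between the replicates was called for none of the 10 genes by edgeR, beside 0.763% of all genes, and 1 of the 10, Fbxo5, had an unadjusted p under 0.05.

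**Figure D4:**
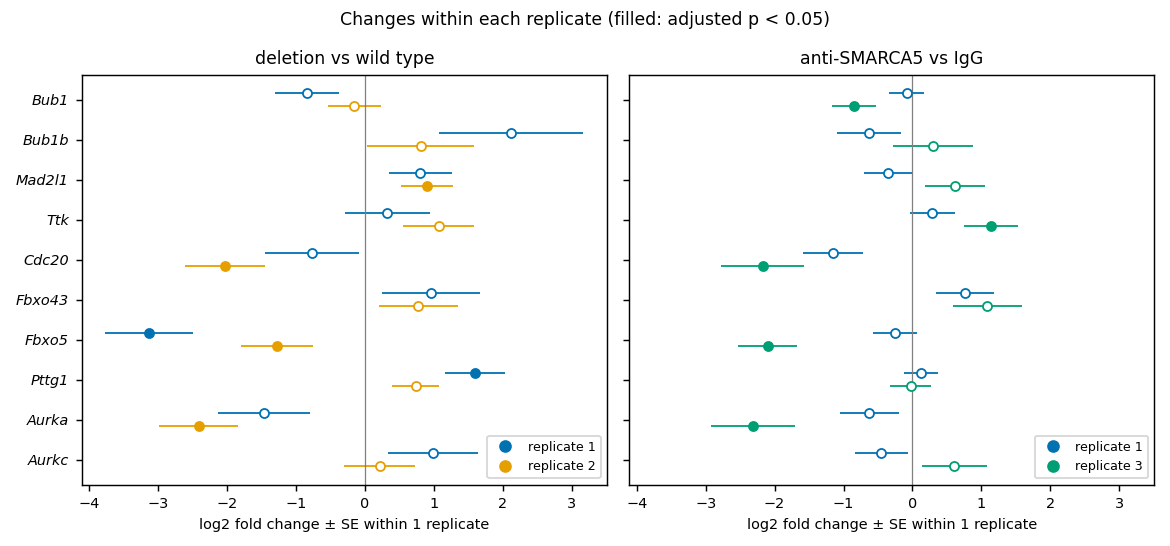
Log2 fold changes with SE bars within each replicate, for the deletion comparison (left, replicates 1 and 2) and for anti-SMARCA5 against IgG (right, replicates 1 and 3), with filled points at an adjusted p under 0.05. On the right the points of replicate 3 for Cdc20, Fbxo5 and Aurka lie near -2, and those of replicate 1 between -1.15 and -0.25.

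Over all libraries of anti-SMARCA5 and IgG, none of the 10 genes changed, beside 3.03% of the 10447 genes tested by edgeR. Without well C02 the count over all genes was 521 in place of 317, and none of the 10 genes was called. At an unadjusted p under 0.05 there was 1, Cdc20, and DESeq2 called none either. The replicate number was also fitted as a block, since each TrimAway replicate was a separate pool of injected embryos. Whether groups with the same number shared a pool is not stated in the sources used here. With the block 4 of the 10 changed, beside 25.8% of all genes: Cdc20, Fbxo5 and Aurka were lower and Fbxo43 was higher. The median log2 fold change of the 10 genes was -0.18 without and -0.16 with the block, against 0.04 and -0.01 for all tested genes.

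Cdc20 ran from 4.46 through 89.6 to 908 CPM in anti-SMARCA5, from 8.28 through 249.8 to 1891 CPM in IgG and from 71.1 through 419.7 to 979 CPM in uninjected libraries. In replicate 3 the 7 anti-SMARCA5 libraries held 11.5 to 53.5 CPM and the 10 IgG libraries 8.28 to 398 CPM. In replicate 1 the medians were 178 CPM for anti-SMARCA5 and 478 CPM for IgG. Against IgG the difference on the log2 scale was -0.99 (SE 0.43, edgeR adjusted p = 0.130), and -1.55 with the block (SE 0.38, edgeR adjusted p = 0.00473). Within replicate 3 it was -2.17 (SE 0.60, edgeR adjusted p = 0.0101), and within replicate 1 it was -1.15 (SE 0.43, edgeR adjusted p = 0.126).

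Aurka ran from 0 through 44.9 to 315 CPM in anti-SMARCA5, from 2.36 through 134 to 389 CPM in IgG and from 34.3 through 190.4 to 372 CPM in uninjected libraries. In replicate 3 the 7 anti-SMARCA5 libraries held 3.37 to 26.3 CPM, against a median of 101 CPM in IgG. Against IgG it differed by -0.77 on the log2 scale (SE 0.41, edgeR adjusted p = 0.214), and -1.27 with the block (SE 0.43, edgeR adjusted p = 0.0253). Within replicate 3 it was -2.31 (SE 0.61, edgeR adjusted p = 0.00706), and within replicate 1 it was -0.62 (SE 0.43, edgeR adjusted p = 0.389).

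Fbxo5 ran from 2.89 through 106 to 265 CPM in anti-SMARCA5, from 51.8 through 148 to 384 CPM in IgG and from 76.2 through 99.2 to 167 CPM in uninjected libraries. In replicate 3 the anti-SMARCA5 libraries held 2.89 to 53.5 CPM and the IgG libraries 51.8 to 230.0 CPM, so these groups barely overlapped. The medians of replicate 1, 122 and 147 CPM, lay close together. On the log2 scale it differed from IgG by -0.46 (SE 0.27, edgeR adjusted p = 0.256), and -0.97 with the block (SE 0.30, edgeR adjusted p = 0.0160). Within replicate 3 it was -2.102 (SE 0.43, edgeR adjusted p = 0.00142), and within replicate 1 it was -0.25 (SE 0.32, edgeR adjusted p = 0.655). The difference between these replicates was -1.85 and missed the threshold (SE 0.53, edgeR adjusted p = 0.0848). None of the 10 genes passed that test, beside 0.366% of all genes, and Fbxo5 and Aurka had an unadjusted p under 0.05.

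Fbxo43 ran from 4.90 through 44.4 to 236 CPM in anti-SMARCA5, from 6.44 through 44.9 to 179 CPM in IgG and from 15.5 through 63.6 to 107 CPM in uninjected libraries. Its log2 fold change against IgG was 0.47 (SE 0.37, edgeR adjusted p = 0.398), and 0.89 with the block (SE 0.33, edgeR adjusted p = 0.0402). Within replicate 3 of that comparison 5 of the 10 genes changed, beside 23.1% of all genes: Cdc20, Fbxo5, Aurka and Bub1 were lower and Ttk was higher. Ttk held 159.5 to 276 CPM in the 7 anti-SMARCA5 libraries of replicate 3 and 49.6 to 195 CPM in the 10 IgG libraries, and the difference on the log2 scale was 1.14 (SE 0.40, edgeR adjusted p = 0.0341). Bub1 differed there by -0.85 (SE 0.32, edgeR adjusted p = 0.0499). Within replicate 1 none of the 10 changed in the edgeR fit, beside 1.04% of all genes, and Cdc20 alone had an unadjusted p under 0.05. Both replicates were fitted jointly here. A fit without replicate 1, of anti-SMARCA5 replicates 2 and 3 against IgG replicate 3, called 0 of the 10, beside 0 of 9402 genes. Cdc20 was then at -0.76 (edgeR adjusted p = 0.489), Fbxo5 at -0.75 (edgeR adjusted p = 0.418) and Aurka at -1.45 (edgeR adjusted p = 0.387). In all 7 anti-SMARCA5 libraries of replicate 3, Cdc20, Fbxo5 and Aurka lay together below the median of all IgG libraries. This held for 7 of 17 in replicate 1 and 5 of 7 in replicate 2. Of the IgG libraries themselves, 1 of 10 in replicate 1 and 4 of 10 in replicate 3 did so.

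None of the remaining 4 genes passed against IgG. Log2 fold changes of Pttg1 (-0.01), Mad2l1 (-0.09), Aurkc (-0.10) and Bub1b (-0.32) had SE values of 0.18 to 0.33. Of these, 3 had opposite signs in replicates 1 and 3, at -0.35 and 0.62 for Mad2l1, -0.63 and 0.30 for Bub1b and -0.45 and 0.60 for Aurkc, with no call in either. Pttg1 had medians of 331 CPM in anti-SMARCA5, 347 CPM in IgG and 419 CPM in uninjected libraries. Mad2l1 medians were 198, 256 and 260.1 CPM in the same order.

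Against uninjected embryos 4 of the 10 genes changed, beside 27.9% of the 10750 genes tested. This comparison shares the anti-SMARCA5 libraries with the one against IgG. Ttk was higher (log2 fold change 1.25, SE 0.35, edgeR adjusted p = 0.00852). Cdc20 (-1.06, SE 0.41, edgeR adjusted p = 0.0458), Aurka (-1.07, SE 0.42, edgeR adjusted p = 0.0496) and Aurkc (-0.71, SE 0.27, edgeR adjusted p = 0.0456) were lower. With the replicate block 2 changed, beside 31.9% of all genes: Cdc20 (-1.54, edgeR adjusted p = 0.00747) and Aurka (-1.35, edgeR adjusted p = 0.0138). Without well C02 the count was also 2, beside 2998 of 10699 genes, and without replicate 1 it was 0, beside 1 of 10544. Within replicate 1 edgeR called none of the 10 genes, beside 11.3% of all genes, with Fbxo5 and Aurkc at an unadjusted p under 0.05. Within replicate 3, which holds 7 anti-SMARCA5 and 5 uninjected libraries, it called 6, beside 36.7% of all genes: Ttk, Fbxo43 and Mad2l1 were higher and Cdc20, Fbxo5 and Aurka were lower. Ttk differed by 0.13 within replicate 1 (SE 0.28, edgeR adjusted p = 0.769) and by 2.79 within replicate 3 (SE 0.46, edgeR adjusted p = 6.64e-05). Aurkc differed by -0.98 and 0.21 (SE 0.34 and 0.52), and neither value passed. Aurkc ran from 11.4 through 42.0 to 62.5 CPM in uninjected libraries and had medians of 19.0 CPM in anti-SMARCA5 and 17.9 CPM in IgG. Of the 6 genes called within replicate 3, all but Fbxo5 had the same sign there in IgG against uninjected. Those values were 1.64 for Ttk (SE 0.45), 1.23 for Fbxo43 (SE 0.54) and 0.95 for Mad2l1 (SE 0.35). Cdc20 was at -1.29 (SE 0.48), Aurka at -0.41 (SE 0.47) and Fbxo5 at 0.57 (SE 0.37), and none of these passed.

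IgG against uninjected gave no call by edgeR among the 10 genes or among all 9915 tested, which is 0.0%. At an unadjusted p under 0.05 there were 5 of the 10 and 1440 of all genes, and DESeq2 called 2 and 261. The 2 genes called by DESeq2 were Bub1 and Fbxo5. In the edgeR fit their log2 fold changes were 0.57 (SE 0.20, edgeR adjusted p = 0.197) and 0.76 (SE 0.23, edgeR adjusted p = 0.161).

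The effects of the deletion and of TrimAway were also set against each other in 1 fit of the 4 groups. The difference was called for 2 of the 10 genes, beside 19.2% of all genes. For Fbxo5 it was -1.60 (SE 0.50, edgeR adjusted p = 0.0174), and for Pttg1 1.05 (SE 0.32, edgeR adjusted p = 0.0132), deletion minus anti-SMARCA5 against IgG. With the replicate block the differences were -1.13 (edgeR adjusted p = 0.168) and 0.92 (edgeR adjusted p = 0.0537), and neither passed. The count tables of the experiments name different sequencing lanes, and lane and kind of SMARCA5 loss cannot be told apart in this contrast.

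Other genes of the same machinery were taken from 3 lists. Of 18 kinetochore and checkpoint genes, 17 could be tested in the deletion comparison, where 3 rose and 8 fell, with a median log2 fold change of -0.55. Of all genes tested there 56.6% were called, 30.3% higher and 26.4% lower. The largest falls were Trip13 (-2.56, edgeR adjusted p = 0.00319), an ATPase that reopens MAD2, and Spdl1 (listed under its older name Ccdc99, -2.03, edgeR adjusted p = 9.35e-06), which brings dynein to kinetochores. Spdl1 medians were 245 CPM in wild-type and 32.8 CPM in maternal deletion libraries. The largest rises were the kinetochore genes Nuf2 (1.90, edgeR adjusted p = 0.00182) and Zw10 (1.11, edgeR adjusted p = 0.0172). In anti-SMARCA5 against IgG edgeR called none of the 18, at 3 with an unadjusted p under 0.05, and 2 with the replicate block, both lower, where 25.8% of all genes were called.

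Of 9 genes of the Aurora B complex and the centromere, 6 fell and 1 rose in maternal deletion embryos, beside 26.4% lower and 30.3% higher among all genes, with a median log2 fold change of -1.51. Incenp, the scaffold of the complex, fell from a median of 167 to 10.4 CPM (-2.63, edgeR adjusted p = 7.31e-07), and all 28 libraries lay below the wild-type median. Aurkb, the kinase itself, fell by 2.62 on the log2 scale (edgeR adjusted p = 0.000608). Birc5, which encodes the subunit survivin, rose by 0.77 (edgeR adjusted p = 0.00137). Against IgG the count was 1 lower, Tpx2 (-0.86, edgeR adjusted p = 0.0435), an activator of Aurora A, and 3 lower with the block, beside 3.03% and 25.8% of all genes called. There Incenp was at -0.34 (edgeR adjusted p = 0.546), Aurkb at -1.03 (edgeR adjusted p = 0.116) and Birc5 at -0.06 (edgeR adjusted p = 0.867).

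Of 18 genes of the APC/C and separase, 17 could be tested, 3 rose and 3 fell, a smaller share than the 56.6% called among all genes, and the median was 0.15. Anapc7, a subunit of the complex, fell from a median of 298 to 5.45 CPM (-3.76, edgeR adjusted p = 1.16e-06), with all 28 libraries below the wild-type median. Ube2c, the ubiquitin-conjugating enzyme that works with the APC/C, fell from a median of 295 to 38.9 CPM (log2 fold change -2.104, edgeR adjusted p = 5.19e-07). The subunit genes Cdc26 (1.24, edgeR adjusted p = 0.000844) and Anapc5 (1.16, edgeR adjusted p = 0.000812) rose. Against IgG none of this list was called by edgeR, at 3 with an unadjusted p under 0.05, and 3 with the block (beside 25.8% of all genes), all lower, among them Anapc7 (-2.03, edgeR adjusted p = 0.00894) and Ube2c (-1.44, edgeR adjusted p = 0.0192). Without wells A04, G05 and H05 the deletion counts were 4 higher and 9 lower, 1 and 6, and 3 and 4 for the 3 lists in this order. Over all 8380 genes tested in that fit, 2678 were higher and 2357 lower.

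**Figure D5:**
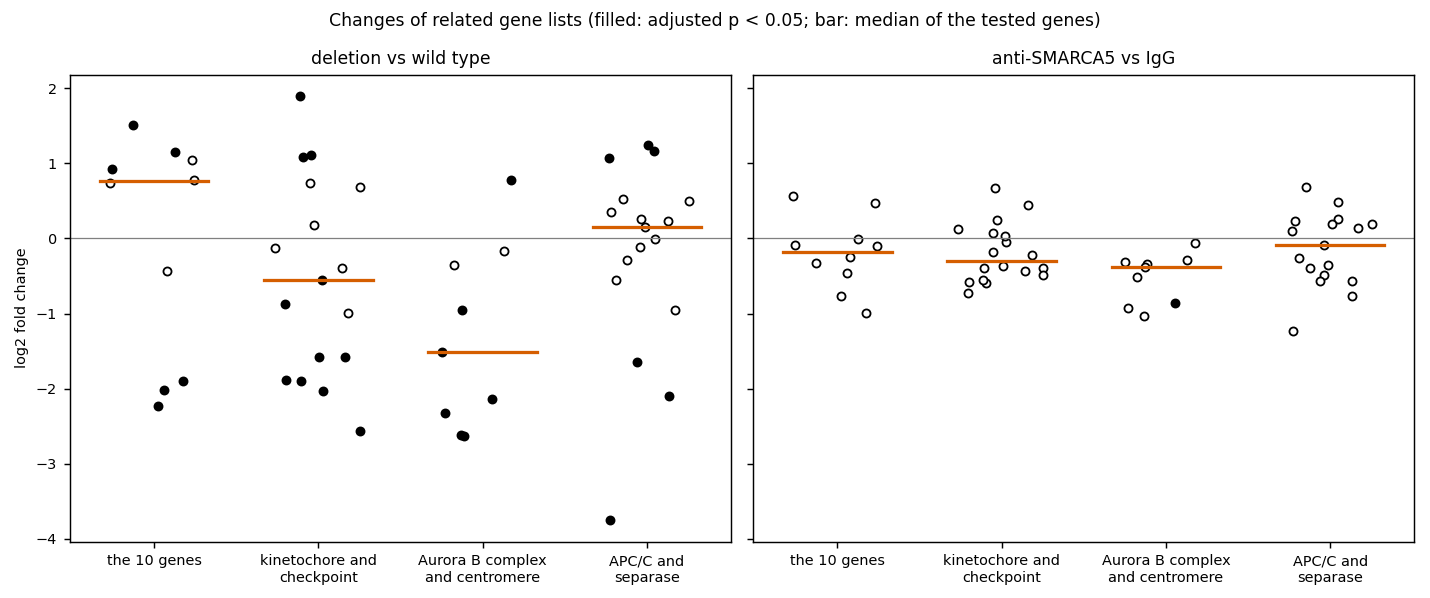
Log2 fold changes of the 10 genes and of the 3 related lists in the deletion comparison (left) and in anti-SMARCA5 against IgG (right), 1 point per tested gene, filled at an adjusted p under 0.05, with a bar at the list's median. The Aurora B list has the lowest median on the left, -1.51, and Anapc7 the lowest point, -3.76.

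Marker genes moved with the groups as well. Of 10 oocyte markers 9 could be tested in the deletion comparison, and all 9 were higher there, beside 30.3% of all genes. Their median log2 fold change was 2.72. Their summed level ran from 245 through 1295 to 4122 CPM in wild-type and from 627 through 8604 to 30370 CPM in maternal deletion libraries, and Figla was at 0 in the wild-type group. Of 11 markers of the 2-cell embryo 9 could be tested and 5 were lower, beside 26.4% of all genes. Their summed medians were 1048 CPM in wild-type and 129 CPM in maternal deletion libraries. In wild-type replicates 1 and 2 the summed medians were 2459 and 490 CPM for oocyte markers and 1564 and 757 CPM for 2-cell markers. In maternal deletion replicates 1 and 2 they were 10199 and 7592 CPM, and 126 and 132 CPM. In the TrimAway experiment the lowest summed median of the 2-cell markers, 147 CPM, was that of anti-SMARCA5 replicate 3, against 1198 CPM in IgG replicate 3 and 1370 CPM in anti-SMARCA5 replicate 1. Oocyte markers in anti-SMARCA5 replicate 3 had a summed median of 3189 CPM, against 2658 CPM in IgG replicate 3. Of 8 markers of the maternal embryo store, 6 were higher and 1 lower in the deletion comparison. Their summed medians were 7282 CPM in wild-type and 6607 CPM in maternal deletion libraries. Of 8 blastocyst markers 2 could be tested there, with 1 higher and 1 lower. Against IgG 5 of them could be tested and 2 were higher, beside 3.03% of all genes called. The 9 granulosa and cumulus markers summed to at most 239 CPM in any library, with Foxl2, Inha and Inhba at 0 in the wild-type group. The part of these markers in the changes of the 10 genes was not tested. CPM is a share of a library's counts, so neither cell number nor RNA per cell can be read from it in these embryos.

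The 3 wells without an embryo held 9 counts of the 10 genes among 3151 counts in all, from Mad2l1, Pttg1 and Aurka only.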

How the data were processed

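The counts analysed were the authors' own: a gene-by-well table for each of 2 experiments, deposited as whole numbers without normalization, per the file headers. Reads had been trimmed with Trim Galore 0.6.5 and cutadapt 2.3 and aligned with HISAT2 2.1.0 to GRCm38, per the submitters' processing notes. The annotation release and the handling of strand, multiple matches and duplicates are not given in the sources used here. Odd low counts outnumbered even ones (134662 values of 1 against 30228 of 2, and 84269 of 3 against 23199 of 4), so counting error is uncertain. Lines that shared an identifier were summed, which turned 25965 lines into 25900 genes.

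Libraries under 100000 counts were left out, and CPM is counts per 1000000 counts of the library. Groups were compared with edgeR 4.0.16 (R 4.3.3, limma 3.58.1): TMM scaling, filterByExpr by group, robust quasi-likelihood test, Benjamini-Hochberg adjustment over all tested genes, no block. SE is the absolute log2 fold change divided by the square root of F. Values within a replicate are contrasts from 1 edgeR fit of the replicates that both groups share, so dispersions are shared between replicates. The script was tested on simulated data. Alternatives were a replicate block, DESeq2 1.42.0, other scaling and filters, and fits without single replicates or doubted wells. Wells A04, G05, H05 and C02 were doubted from their own Smarca5, Gdf9 or Trim21 values, so the fits without them were also picked from these data. The fit without wells D09 and E09 was not planned and was chosen after seeing the data.

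The file headers place both groups of a deletion replicate in 1 sequencing lane, and the replicates in separate lanes. The design text calls each TrimAway replicate a different pool of injected embryos and does not say that groups shared a pool, so there the block is a fit with the number as a possible batch. Deviations of same-numbered samples correlated at 0.537 for the deletion, 0.590 for anti-SMARCA5 and IgG, 0.0902 for anti-SMARCA5 and uninjected, and 0.432 for IgG and uninjected. Members, gene lists and markers were chosen with earlier results of these data known. Beyond the 10 genes, the text names from each list up to 2 called genes with the largest rise and 2 with the largest fall in the deletion comparison. Tpx2, the only gene of its list called against IgG, was named after its value was seen. Genes were matched by symbol or older symbol. Promoter windows are RefSeq's, and Fbxo43 had none.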

Additional observations from a re-analysis of the deposited data

Results flagged for a closer look

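For Fbxo5 and Pttg1 the effect of the maternal deletion differed from that of anti-SMARCA5 against IgG by a test of the difference itself. These were 2 of the 10 genes, beside 19.2% of all genes, which is close to the same share. Sequencing lane and kind of SMARCA5 loss cannot be told apart in this contrast. The difference was -1.60 on the log2 scale for Fbxo5 (SE 0.50, edgeR adjusted p = 0.0174), from -2.01 in the deletion comparison and -0.46 against IgG. For Pttg1 it was 1.05 (SE 0.32, edgeR adjusted p = 0.0132), from 1.15 and -0.01. With the replicate block neither passed, at -1.13 (edgeR adjusted p = 0.168) and 0.92 (edgeR adjusted p = 0.0537).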

How the results depend on the processing

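In the deletion comparison none of the 100 alternative values of the 10 genes changed sign. Of these, 88 kept their side of the threshold, 11 lost it and 1 gained it. Aurka and Pttg1 passed in all 10 alternatives, Cdc20 and Fbxo5 in 9, Mad2l1 in 8 and Bub1b in 3. Cdc20 was at -0.83 without replicate 2 (edgeR adjusted p = 0.305) and Fbxo5 at -1.17 without replicate 1 (edgeR adjusted p = 0.0864). The cause was not tested. With the replicate block the members called numbered 5 for the deletion, 4 for anti-SMARCA5 against IgG (main 0), 2 for anti-SMARCA5 against uninjected (main 4) and 0 for the difference between the deletion and TrimAway effects (main 2). All genes called with the block were 4907 for the deletion (main 4825) and 2691 against IgG (main 317). They were 3426 against uninjected (main 2999) and 1404 for that difference (main 2315).

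Against uninjected, the 10 genes gave 2 calls with total counts only, 1 without the low-count filter and 2 at a minimum of 500000 counts. They gave 2 without well C02, and from 0 (without replicate 1) to 2 when a replicate was left out. All genes called were 2283 of 10750 with total counts only, 2611 of 10945 at that minimum and 2998 of 10699 without well C02. For IgG against uninjected the calls among them were 1 without the filter and 2 with DESeq2. Without the low-count filter all genes called were 10416 for the deletion (main 4825), 3010 against IgG, 6184 against uninjected (main 2999), 881 for IgG against uninjected (main 0), 678 and 136 for the differences between replicates (main 65 and 37), and 4285 for the deletion against TrimAway. Against IgG they were 64 with total counts only, 150 at a minimum of 500000 counts, 623 with all libraries, 521 without well C02 and 1340 with DESeq2, which gave 261 for IgG against uninjected. Leaving out a replicate gave 2801 to 3879 for the deletion, 0 (without replicate 1) to 591 against IgG, 1 (without replicate 1) to 2921 against uninjected and 0 to 1 for IgG against uninjected. With total counts only, the deletion calls were 2199 higher and 2623 lower (main 2580 and 2245), those against IgG 17 and 47 (main 181 and 136), and those against uninjected 409 and 1874 (main 1885 and 1114). The median over all genes then moved from 0.18 to -0.04 for the deletion, from 0.04 to -0.10 against IgG, from 0.13 to -0.29 against uninjected and from 0.03 to -0.23 for IgG against uninjected.

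Sign changes were limited to comparisons with TrimAway libraries. Against IgG, with the replicate block Mad2l1 was at 0.025 and Pttg1 at 0.059, and Pttg1 was at 0.0080 at a minimum of 500000 counts, 0.021 with all libraries and 0.0037 without well C02. When a replicate was left out there, the ranges were -0.44 to 0.15 for Bub1, -0.59 to 0.010 for Bub1b, -0.14 to 0.16 for Mad2l1, -0.14 to 0.071 for Pttg1 and -0.48 to 0.32 for Aurkc. Against uninjected, with total counts only Bub1 was at -0.18, Mad2l1 at -0.17 and Fbxo5 at -0.081, and with the replicate block Fbxo5 was at -0.096. Leaving out a replicate there gave -0.58 to 0.34 for Bub1b, -0.21 to 1.10 for Mad2l1, -0.097 to 1.66 for Fbxo43 and -0.17 to 0.65 for Fbxo5. For IgG against uninjected, with total counts only Bub1b was at -0.16 and Fbxo43 at -0.23, and with the replicate block Fbxo43 was at -0.048. Leaving out a replicate there gave -0.058 to 0.96 for Mad2l1, -0.16 to 1.64 for Ttk, -1.29 to 0.56 for Cdc20 and -0.76 to 1.24 for Fbxo43. The difference between the deletion and TrimAway effects for Fbxo43 was at -0.10 with the replicate block. Low levels limit Bub1b, which was at or under 3 counts in 8 of 22 wild-type libraries.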
